A study of Mus musculus with 12 samples.

Results

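The 10 genes described here, Piwil1, Piwil2, Piwil4, Ddx4, Mov10l1, Tdrd9, Tdrd1, Tdrd5, Tdrd6 and Mael, encode core proteins of the piRNA pathway in mouse germ cells. They were chosen by name from the 21938 protein-coding genes that GENCODE M21 places on the 21 chromosomes of the data. The assay was leChRO-seq, a map of nascent transcription in which engaged RNA polymerases on isolated chromatin are allowed to extend their transcripts with biotin-labelled nucleotides, so that the RNA being made, rather than stored RNA, is sequenced. The cells were spermatocytes from the testes of adult wild-type (WT) mice, enriched by sedimentation at unit gravity (STAPUT) for 3 groups of prophase I of meiosis: leptonema/zygonema, pachynema and diplonema. Each group had 4 libraries, 12 in all, and no group carried a treatment or an altered allele. The study used mice of the C57Bl/6J or DBA/2J background, and the sources used here do not say which of these gave the leChRO-seq cells. An enriched fraction is not pure, and the study names spermatogenic cells of earlier or later stages as possible contaminants, most of them elongated spermatids.

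The data are 3 lists of dREG peaks, 1 per substage. dREG peaks mark sites where a trained classifier recognised, in the shape of the run-on signal on both strands, that transcription was starting, at promoters and enhancers alike, and a stronger match gets a larger score. The leptonema/zygonema list held 71107 peaks, that of pachynema 68352 and that of diplonema 38603. The 4 libraries of a substage were merged before the peaks were called, so a substage is 1 list without replicates, and no spread, standard error or test between substages can be given for any value below. They give no number of reads, so the depth behind a single call cannot be read from them. The scores are not scaled between lists. A promoter was therefore followed across substages in only 2 ways. One is whether it was called at all, that is, whether a peak's edge lay under 1000 bp from an annotated transcription start site (TSS) of the gene. The other is the percentile of its highest-scoring peak, the share of all peaks of the same list with a lower score.

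piRNAs are small RNAs that guide PIWI proteins to transposon transcripts and, in the adult testis, to many other RNAs. Long precursor transcripts are unwound and cut at the surface of mitochondria and in nuage, the electron-dense RNA granules of germ cells, and Tudor proteins hold the machinery together by binding methylated arginines on PIWI proteins. A first set of piRNAs acts in fetal germ cells, where it directs DNA methylation of transposons, and another becomes abundant in pachytene spermatocytes, where the factor A-MYB (Mybl1) drives its precursors.

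Of the 10 genes, 8 had a promoter peak in leptonema/zygonema and 9 had one in pachynema as well as in diplonema. Of all protein-coding genes, the same rule called 60.2%, 60.5% and 51.6% in these lists. A peak was called in all 3 lists for 8 of the 10 genes, against 49.5% of protein-coding genes. Tdrd6 was called in pachynema and diplonema and not in leptonema/zygonema, a pattern that 1.44% of protein-coding genes had, and Piwil4 was called in no list, as were 35.9% of protein-coding genes. By their median, the called promoters stood above protein-coding genes in general. The median percentile of the genes called was 90.2, then 92.2, then 94.5 from the earliest list to the latest, beside 82.9, 84.6 and 78.6 for all protein-coding genes called. Below that median of all genes called lay Piwil1 in leptonema/zygonema (68.0), and Piwil2 (82.0) and Tdrd6 (70.1) in pachynema. At or over percentile 90 were 4 of the 10 genes in leptonema/zygonema and 6 in each later list. The shares were 18.3%, 21.7% and 14.3% of all protein-coding genes, and 30.4%, 35.9% and 27.7% of those called.

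**Figure D1:**
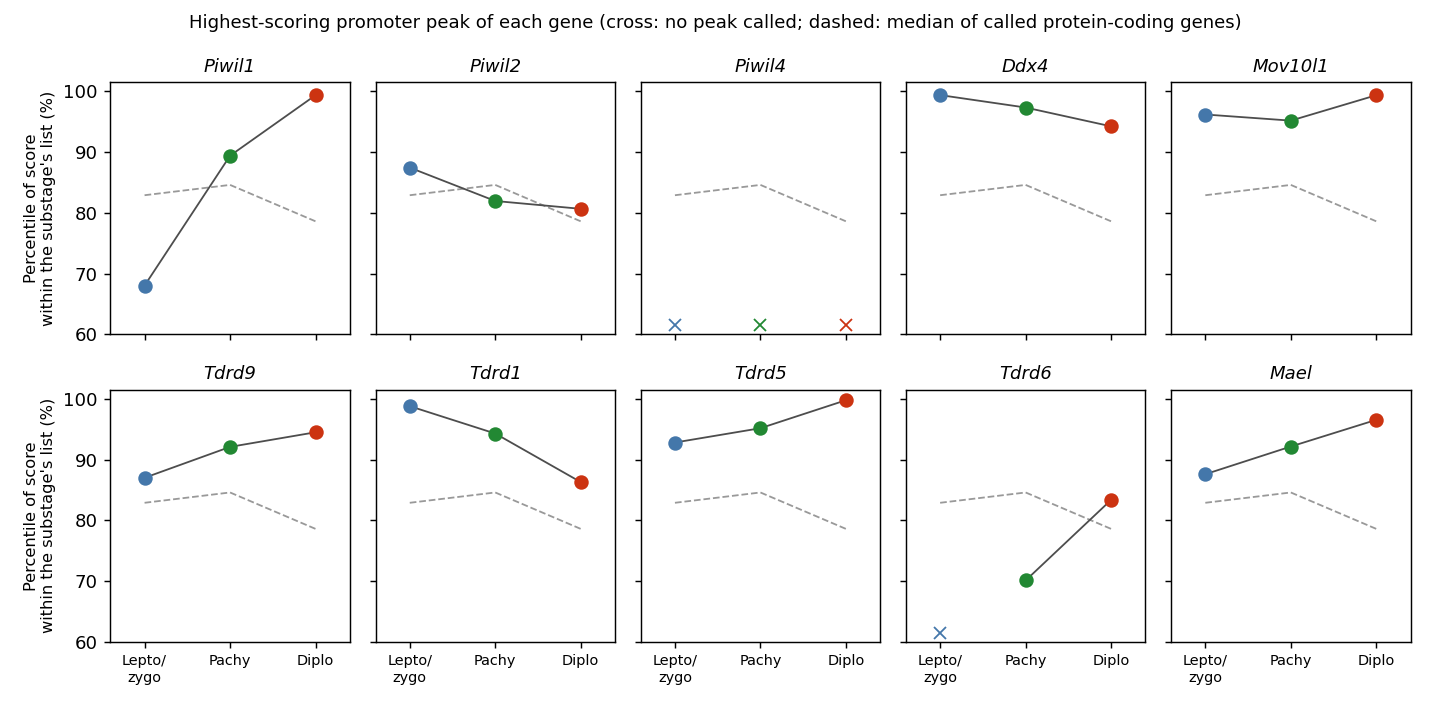
Each panel plots, for 1 gene, the percentile of the dREG score of its highest-scoring promoter peak within the list of each substage (vertical axis, %; 1 merged list per substage, so no error bars), with a cross where no peak was called and a dashed line for the median of all protein-coding genes called. Piwil1 stands at percentile 68.0, 89.4 and 99.4 and Tdrd1 at 98.8, 94.3 and 86.3, and Piwil4 has crosses only.

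The order of the genes differed between the lists. In leptonema/zygonema Ddx4 ranked first of the 8 called genes and Piwil1 last, and in diplonema Tdrd5 ranked first of 9 while Piwil1 and Mov10l1 shared the place below it. From leptonema/zygonema to pachynema 4 of 8 genes had a higher percentile (Piwil1, Tdrd9, Tdrd5 and Mael), against 57.3% of the 12498 protein-coding genes called in both lists. From pachynema to diplonema 6 of 9 did (Piwil1, Mov10l1, Tdrd9, Tdrd5, Tdrd6 and Mael), against 27.2% of 11166. From leptonema/zygonema to diplonema 5 of 8 did (Piwil1, Mov10l1, Tdrd9, Tdrd5 and Mael), against 36.9% of 10918. Piwil2, Ddx4 and Tdrd1 were lower in each step. When each list was instead read as a ranking of protein-coding promoters alone, Piwil2 was higher in diplonema than in pachynema, which made 7 of 9 genes, against 40% of protein-coding genes. As a description over few genes, Spearman's rho of the percentiles was 0.85 between leptonema/zygonema and pachynema (8 genes), 0.49 between pachynema and diplonema (9 genes) and -0.18 between leptonema/zygonema and diplonema (8 genes). Over all protein-coding genes called in both lists it was 0.80, 0.75 and 0.56. All points of a list share 1 merged set of libraries and its depth.

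Among the PIWI proteins, which carry the piRNAs, Piwil1 had the widest span of the 9 genes called. Piwil1 encodes MIWI, the PIWI protein of pachytene spermatocytes and round spermatids. Its highest promoter score was 0.796 in leptonema/zygonema (percentile 68.0), 1.12 in pachynema (percentile 89.4) and 1.26 in diplonema (percentile 99.4). Among the protein-coding genes called in a list, ordered by score, Piwil1 moved from rank 9645 of 13203 to rank 4992 of 13272 and then to rank 190 of 11328. The gain from leptonema/zygonema to pachynema was 21.4 percentile points, and 5.82% of protein-coding genes called in both lists gained as much. The further gain to diplonema was 9.96 points, which 4.59% matched, and over both steps it was 31.4 points, which 2.4% matched. The genes behind these shares include many that stood too high to gain as much. The median protein-coding gene called in leptonema/zygonema was at percentile 82.9. The median protein-coding gene changed by 1.07 points in the first step and by -6.21 points in the second. The size of the Piwil1 gain depends on the reference: over both steps it was 58.3 points with lists reduced to equal size (percentiles 41.1, 81.3 and 99.4) and 71.4 points among protein-coding promoters (26.9, 62.2 and 98.3). The 3 protein-coding genes whose percentiles lay closest to those of Piwil1 in all 3 lists were Msl2, 4930595M18Rik and Dcaf7, whose largest differences from it were 1.46, 1.89 and 2.67 points. Of 10850 other genes called in all 3 lists, 13 stayed within 5 points of it.

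The peaks of Piwil1 did not lie at the 5′ end of the gene as annotated. Piwil1 lies on the plus strand of chromosome 5 from 128702524 to 128755474 (GRCm38, the mm10 build), with 3 annotated TSSs. No peak lay under 1000 bp from the first TSS, 128702524, in any list, and the nearest was 16714 bp away in leptonema/zygonema, 4747 bp away in pachynema, and 17134 bp away in diplonema. The highest-scoring peak covered the TSS at 128736174, which is 33650 bp further into the gene record. Its bounds were 128735741 and 128736570 in the leptonema/zygonema list, 128735581 and 128736320 in that of pachynema, and 128735661 and 128736410 in that of diplonema. A second transcript starts there on the opposite strand, 4930553I04Rik, a gene model that still awaits experimental evidence (type TEC) and whose TSS is 145 bp away, and dREG peaks carry no strand, so initiation on the 2 strands cannot be told apart in these lists.

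Piwil2 encodes MILI, which acts in fetal germ cells and again in spermatocytes and binds the products of precursor cutting. It was called in all 3 lists with scores of 1.13 (percentile 87.5), 0.982 (percentile 82.0) and 0.865 (percentile 80.7) in the order of the substages. With the lists reduced to equal size the percentiles were 76.9, 68.0 and 80.7, and among protein-coding promoters they were 61.8, 44.9 and 53.4. The order of the substages thus depended on the reference. Its highest-scoring peak in leptonema/zygonema (chromosome 14, 70428461 to 70428960) and in pachynema (70428401 to 70428900) lay downstream of its TSSs and covered the TSS of Gm24890, a small nuclear RNA gene at 70428597 on the same strand. In diplonema the highest-scoring peak began past that point, at 70428661, and covered a Piwil2 TSS at 70429064. With the peak nearest to a Piwil2 TSS in its place, the percentiles were 78.2, 77.5 and 80.7, with no decline from the first list to the last.

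Piwil4 encodes MIWI2, the nuclear PIWI protein of fetal prospermatogonia that guides DNA methylation of transposons. It was the only one of the 10 genes without a promoter or gene-body peak in any list. The peak nearest to its first TSS, 14740733 on chromosome 9, was 29888 bp away in leptonema/zygonema, 10008 bp away in pachynema, and 30068 bp away in diplonema. A gene without a call may still be transcribed below what dREG calls at this depth.

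The 3 RNA helicases of the list were called in every list. Ddx4 encodes the mouse VASA homologue, a DEAD-box helicase that marks germ cells throughout life. Its promoter scored 1.39 in leptonema/zygonema (percentile 99.4), 1.27 in pachynema (percentile 97.4) and 1.09 in diplonema (percentile 94.2), and it ranked first of the called genes of the list in leptonema/zygonema and pachynema and in place 6 in diplonema. From pachynema to diplonema it changed by -3.11 points, by -1.07 points with lists reduced to equal size and by -6.94 points among protein-coding promoters. Mov10l1 encodes a helicase that binds piRNA precursors and starts their processing. Its scores were 1.28 (percentile 96.2), 1.22 (percentile 95.2) and 1.26 (percentile 99.4), so its place in the list was high throughout. Tdrd9 encodes a helicase with a Tudor domain that works with MIWI2. Its scores were 1.12 (percentile 87.0), 1.16 (percentile 92.1) and 1.10 (percentile 94.5). Of these 3 genes, Tdrd9 had the lowest percentile in leptonema/zygonema and in pachynema, and Ddx4 had the lowest in diplonema.

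Among the Tudor proteins without a helicase domain, Tdrd1 and Tdrd5 moved in opposite directions. Tdrd1 encodes a scaffold of nuage that binds the methylated arginines of MILI. Its scores were 1.36 in leptonema/zygonema (percentile 98.8), 1.21 in pachynema (percentile 94.3) and 0.951 in diplonema (percentile 86.3), and 33.5% of protein-coding genes lost as many points from the first list to the last. That change was -12.52 points over all peaks and -33.07 points among protein-coding promoters. Tdrd5 encodes a protein with LOTUS and Tudor domains that is needed for nuage assembly and for pachytene piRNAs. Its scores were 1.22 (percentile 92.8), 1.22 (percentile 95.2) and 1.32 (percentile 99.8), and in diplonema it held rank 63 of all 11328 protein-coding genes called. Its single peak in each list also covered the TSS of 4930518J20Rik, an antisense gene on the plus strand whose TSS lies 117 bp from one of Tdrd5, so the score cannot be assigned to either strand.

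For Tdrd1 the lists differed in which starts were called. The gene lies on the plus strand of chromosome 19 from 56826209 to 56870012, with 3 TSSs within 77 bp of its 5′ end and another at 56830712, 4503 bp further in. The highest-scoring peak covered this internal TSS in every list. The upstream TSSs were covered by a peak in diplonema alone (56826171 to 56826890, score 0.462, percentile 40.0), and the nearest peak to the first TSS was 3349 bp away in leptonema/zygonema and 3622 bp in pachynema. That diplonema peak scored below 0.5, the stricter limit tried as an alternative.

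Tdrd6 encodes a large protein with many Tudor domains that organises the chromatoid body, the nuage of spermatids. It had no peak in leptonema/zygonema, where the nearest one lay 34209 bp from its first TSS. In pachynema 4 peaks lay under 1000 bp from its TSSs and in diplonema 5, the most at any gene of the list. Its highest score was 0.795 in pachynema (percentile 70.1, the lowest of the 9 genes called) and 0.905 in diplonema (percentile 83.4). The gain of 13.3 points was one that 2.91% of protein-coding genes matched, though some of the others stood too high to gain as much. The gain also rests on which peak was read. The highest-scoring diplonema peak (chromosome 17, 43630461 to 43631050) lay upstream of the TSS at 43630299, and the peak that covered the TSS had percentile 70.9, close to that of pachynema. With the highest-scoring peak but lists reduced to equal size the gain was 36.3 points (percentiles 47.1 and 83.4). Among protein-coding promoters it was 29.2 points (28.9 and 58.1). With TSSs taken from RefSeq, Tdrd6 again had no call in leptonema/zygonema and Piwil4 none in any list.

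Mael encodes Maelstrom, an HMG-box protein of nuage that is needed for transposon silencing. Its scores were 1.13 in leptonema/zygonema (percentile 87.6), 1.17 in pachynema (percentile 92.2) and 1.15 in diplonema (percentile 96.6). The percentile was 8.96 points higher in diplonema than in leptonema/zygonema, a gain that 13.3% of protein-coding genes matched or passed. Some of the others stood too high to gain as much. The Mael gain was 19.4 points with lists reduced to equal size and 27.3 points among protein-coding promoters. In leptonema/zygonema and pachynema its highest-scoring peak lay mostly upstream of the TSS, with neighbouring peaks downstream that began 20 bp after it ended, and in diplonema 1 peak of 860 bp spanned both sides.

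**Figure D2:**
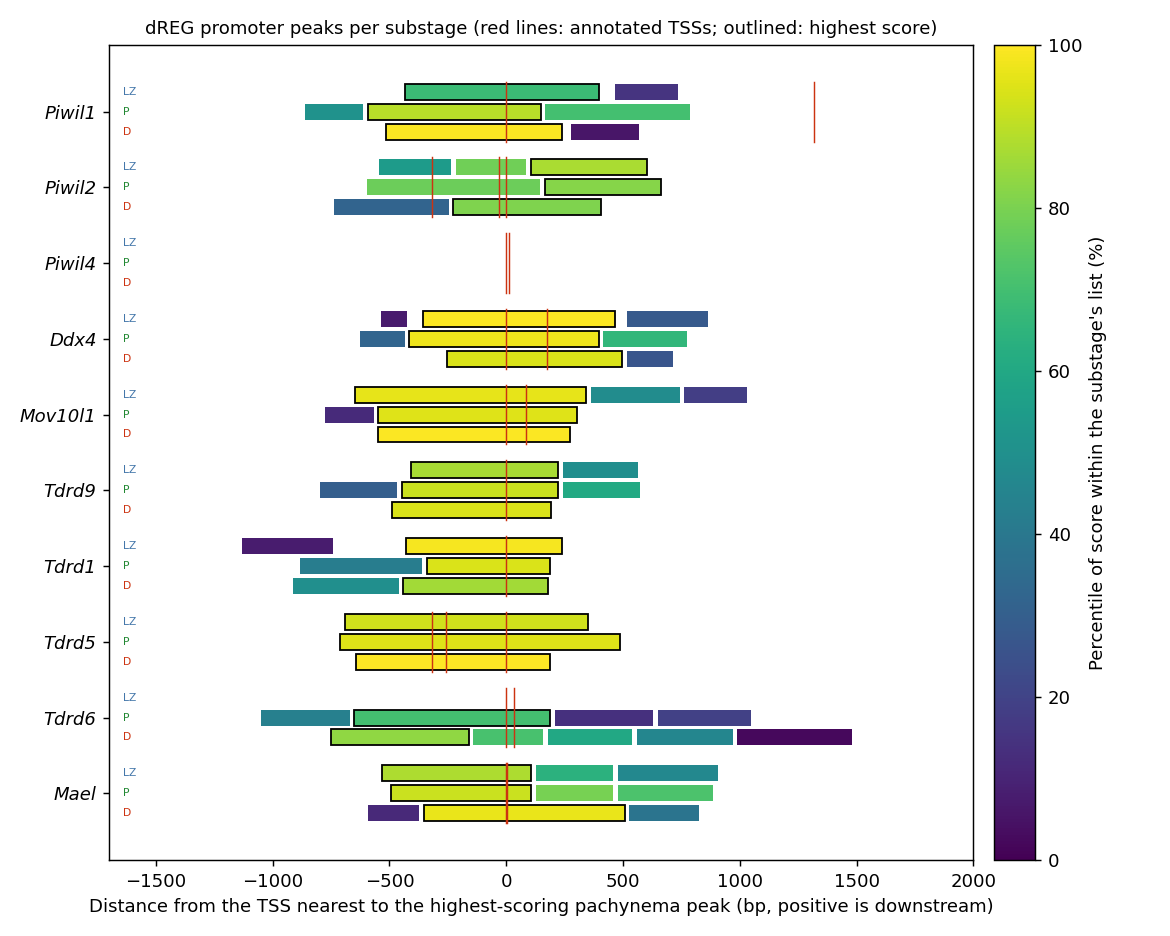
Bars mark the promoter peaks of each gene per substage (LZ, leptonema/zygonema; P, pachynema; D, diplonema) by distance in bp from the TSS nearest to the highest-scoring pachynema peak (for Piwil4, from its first TSS); bar colour is the percentile of the score within the list, red lines are annotated TSSs and an outline marks the highest score. The 62 promoter peaks lie mostly within 1000 bp of 1 TSS per gene, Tdrd6 lacks an LZ row of peaks, and the diplonema peak at the upstream TSSs of Tdrd1 lies outside the range drawn.

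Over the 10 genes there were 19, 23 and 20 promoter peaks in the 3 lists. Their order changed to 14, 16 and 20 when the lists were reduced to equal size. The highest-scoring peak covered a TSS of the gene in 7 of 8 genes called in leptonema/zygonema, 8 of 9 in pachynema and 8 of 9 in diplonema. The exceptions were Piwil2 in the first 2 lists and Tdrd6 in diplonema. The same share over all protein-coding genes was not computed, so these counts only describe the 10 genes. Highest-scoring peaks were 500 to 1200 bp wide.

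The DNA just upstream of these starts was read for the sequence that MYB proteins bind, since A-MYB is the known driver of pachytene piRNA precursors. In windows from 150 bases before to 50 bases after the TSS, the MYB core (CNGTTA or CNGTTG, either strand) was present in 5 of 10 genes: Piwil1 with 3 matches, Tdrd5 with 2, and Mov10l1, Tdrd6 and Mael with 1 each. Tdrd5 and Piwil2 have other TSSs further upstream, and the 150 bases before the TSS used overlapped an exon of a coding transcript. The core was present in 34.8% of 21935 protein-coding promoters and in 34.1% of those called in pachynema. With 250 bases before the TSS it was in 5 of 10 genes and 47.5% of promoters, and at the 5′ end of the gene record in 3 of 10 and 35% of promoters, so the count of the core stood near the background in these windows. The longer form GGCNGTT, which can overlap the core, was present in 4 of 10 genes (Piwil1, with 3 matches, Tdrd1, Tdrd6 and Mael), in 9.12% of all promoters and in 10.3% of those called. It was in 6 of 10 genes when the window began 250 bases before the TSS (12.6% of promoters) and in 2 of 10 when it was set at the 5′ end of the gene record (8.66%). Of the 4 genes with GGCNGTT, Piwil1 and Mael had higher percentiles in each later list, Tdrd1 had lower ones, and Tdrd6 was called in the later lists. The 150 bases before the TSS of these 4 genes are shown because they hold such matches, with the matches to the core or to GGCNGTT on either strand in capitals, 5′ to 3′ on the strand of the gene.
Piwil1 (chr5:128736024-128736173, plus strand of GRCm38): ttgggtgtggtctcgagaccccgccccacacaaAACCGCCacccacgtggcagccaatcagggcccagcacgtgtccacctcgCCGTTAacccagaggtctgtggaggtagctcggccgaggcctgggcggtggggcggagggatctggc
Tdrd6 (chr17:43630300-43630449, minus strand of GRCm38): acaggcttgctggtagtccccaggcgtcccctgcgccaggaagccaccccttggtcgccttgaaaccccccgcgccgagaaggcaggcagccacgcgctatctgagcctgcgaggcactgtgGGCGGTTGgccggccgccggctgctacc
Mael (chr1:166238748-166238897, minus strand of GRCm38): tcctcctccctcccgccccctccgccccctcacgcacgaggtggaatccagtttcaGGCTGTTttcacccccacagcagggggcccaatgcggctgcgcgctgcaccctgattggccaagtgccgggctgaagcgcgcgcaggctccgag
Tdrd1 (chr19:56830562-56830711, plus strand of GRCm38): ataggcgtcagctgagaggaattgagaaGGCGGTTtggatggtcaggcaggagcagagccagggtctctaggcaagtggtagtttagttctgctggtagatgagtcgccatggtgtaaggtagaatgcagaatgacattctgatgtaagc

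In Piwil1 the upstream matches lay at -117 to -111 (GGCNGTT on the opposite strand) and at -67 to -62 (CCGTTA), counted from the TSS, and the other 4 matches began within 3 bases before it or after it. In Tdrd6 both forms overlapped between -28 and -21. In Mael GGCTGTT lay at -94 to -88 and CGGTTA after the TSS, and in Tdrd1 GGCGGTT lay at -122 to -116. A match is a description of the sequence, not a bound site. The full CRE (TGACGTCA), the letters that CREM and CREB bind, was in 0 of 10 windows and 2.33% of all promoters. Its shorter form TGACG was in 2 windows (Tdrd1 and Tdrd5) and in 19.8% of promoters, and GTTGCCA or GTTGCTA, the core letters of RFX sites, were in 0 windows and 6.05% of promoters. The windows were rich in G and C, with a median of 66.2% beside 58.5% for all promoters and 64.0% for those called in pachynema. They ranged from 47.0% in Tdrd1 to 78.5% in Tdrd5.

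Inside the genes, at least 1000 bp from every TSS of the gene, 15 peaks were called in leptonema/zygonema (5 genes), 15 in pachynema (5 genes) and 2 in diplonema (Piwil1 alone). Gene-body peaks were called in 28.6%, 26.9% and 15.8% of protein-coding genes, whose lengths vary. When the longer lists were reduced to the 38603 highest-scoring peaks that the diplonema list holds, 6 were left in leptonema/zygonema and 5 in pachynema. The 32 peaks fell into 20 regions, of which 1 was called in all 3 lists, 6 in 2 lists and 13 in 1. Peaks were joined into a region only where they overlapped, so close neighbours in Tdrd9 and Mov10l1 count as separate regions. The same split over all protein-coding genes was not computed. Of the 10 genes, 6 had gene-body peaks, and Piwil2, Piwil4, Ddx4 and Tdrd5 had none. None of the 32 lay under 1000 bp from a TSS of another annotated gene.

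The region in all 3 lists was an intronic one in Piwil1, 31.5 kb from the first TSS and about 2 kb before the TSS at 128736174 (128733731 to 128734390). Its score was 1.035 in leptonema/zygonema (percentile 82.2), 0.859 in pachynema (percentile 74.5) and 0.379 in diplonema (percentile 24.7). It moved opposite to the promoter beside it, and in leptonema/zygonema it scored above that promoter. In Tdrd1 a region 30.3 kb from the first TSS reached a score of 0.992 in leptonema/zygonema (percentile 79.8) and 1.02 in pachynema (percentile 84.1) and was not called in diplonema. In Mael the region 34.2 kb from the TSS reached 0.949 in leptonema/zygonema (percentile 77.4) and 0.611 in pachynema (percentile 54.1), both in intronic peaks. Its peaks that touch an exon scored lower, 0.507 in leptonema/zygonema and 0.456 in pachynema. The intronic region of Mael at 9.0 kb reached 0.798 (percentile 68.1) and 0.651 (percentile 58.2) in these lists. Tdrd9, the longest gene of the list at 97296 bp, had 6 gene-body peaks, all in leptonema/zygonema, with scores from 0.282 to 0.703. Mov10l1 had low-scoring peaks near 49.9 kb in leptonema/zygonema and pachynema (score at most 0.432), and Tdrd6 had 1 in pachynema (score 0.45). A diplonema peak counted with the Tdrd6 promoter (43628821 to 43629310) overlapped that Tdrd6 peak.

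**Figure D3:**
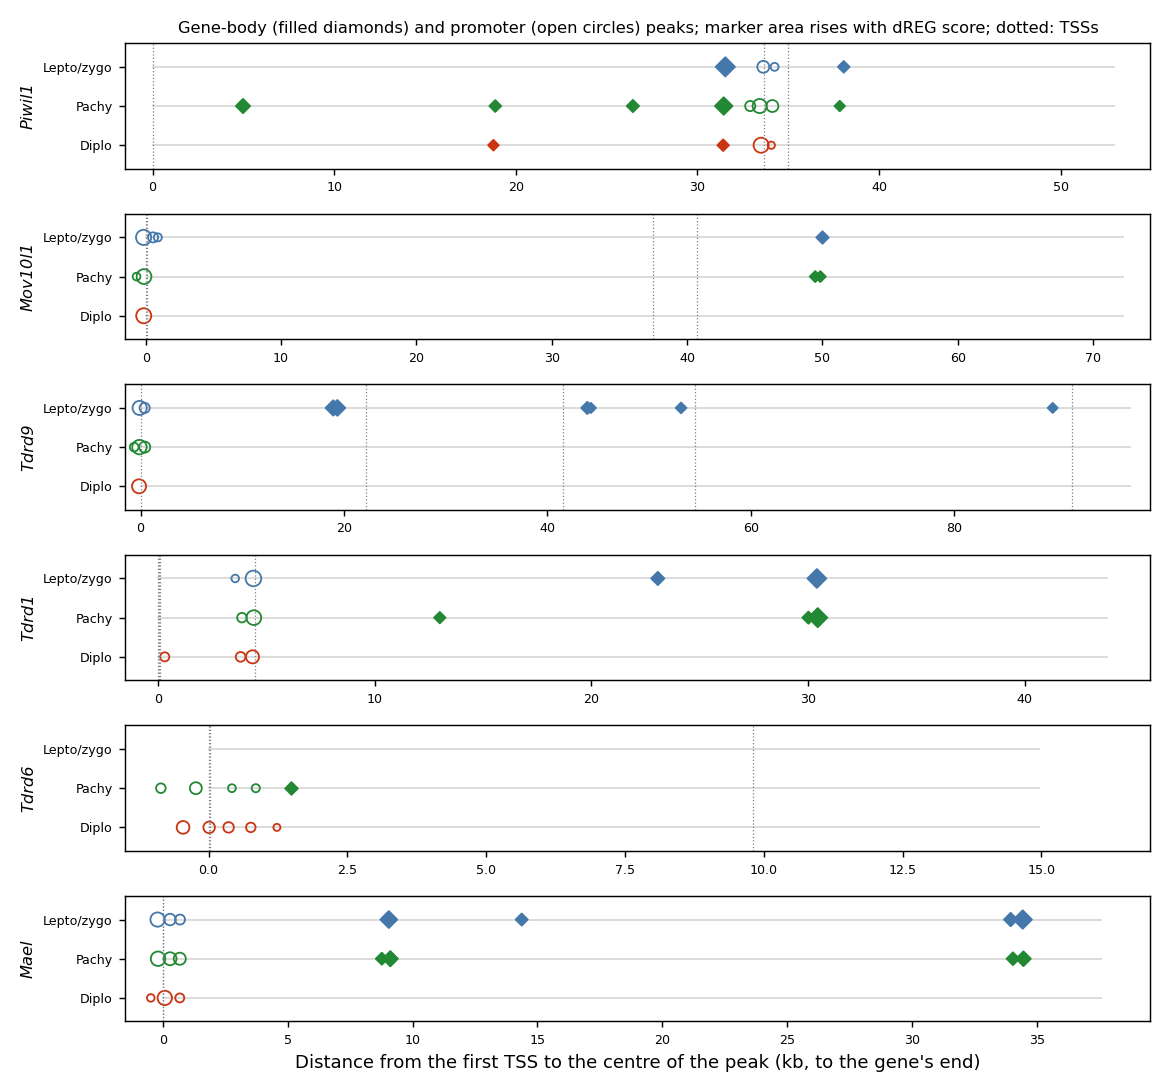
For the 6 genes with gene-body peaks, filled diamonds mark gene-body peaks and open circles promoter peaks by distance in kb from the gene's first TSS, 1 row per substage; marker area rises with the dREG score and dotted lines are annotated TSSs. Diplonema has 2 diamonds, both in Piwil1, against 15 in each of the other lists.

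Other genes of the pathway were read the same way, from a list of 28 ordered by role. A promoter peak was called for 26 of them in leptonema/zygonema and also in pachynema, and for 23 in diplonema. In all 3 lists 23 were called and in none 2. Their median percentiles were 85.8, 87.7 and 77.4, so in diplonema the median lay close to the 78.6 of all protein-coding genes called, while that of the 10 genes above was 94.5. The 13 mitochondrial and nuage factors had medians of 86.3, 88.3 and 86.3, with 12 called in all 3 lists. All 4 genes listed under trimming and methylation were called in each list, with medians of 92.1, 92.9 and 87.6, as were the 4 genes listed under precursor transcription, which include Adad2, an RNA-binding protein, with medians of 86.0, 91.9 and 73.7. Of the 7 genes listed under nuclear silencing, 5 were called in each of the earlier lists and 3 in diplonema. The 7 include Mov10, a widely expressed cytoplasmic helicase related to Mov10l1. The shares over all protein-coding genes were 60.2%, 60.5% and 51.6%. Medians of the silencing genes called were 71.9, 67.3 and 18.4, the last from Dnmt3l (35.4), Morc1 (18.4) and Dnmt3a (6.8) alone.

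The highest percentiles in pachynema belonged to Asz1, a mitochondrial scaffold of nuage (99.4), Exd1, a partner of Tdrd12 (97.9), and Gpat2, an outer-membrane protein that binds MILI (96.5). In diplonema Asz1 stood at 99.0, Exd1 at 91.1 and Gpat2 at 75.8, and the highest there was Tdrkh, a mitochondrial Tudor protein (99.2), chosen after its value was seen. Stk31, Tex15 and Mov10 were called in leptonema/zygonema and pachynema and not in diplonema. Of all 21938 protein-coding genes, 12498 were called in both of those earlier lists and 10851 in all 3. Tex15, which recruits silencing to transposons with MIWI2, had percentiles of 90.6 and 85.3 in the earlier lists. Dnmt3c and Spocd1, both needed for transposon methylation in fetal germ cells, were called in no list, as Piwil4 was. Dnmt3c is a close copy of Dnmt3b, so its missing call is uncertain.

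**Figure D4:**
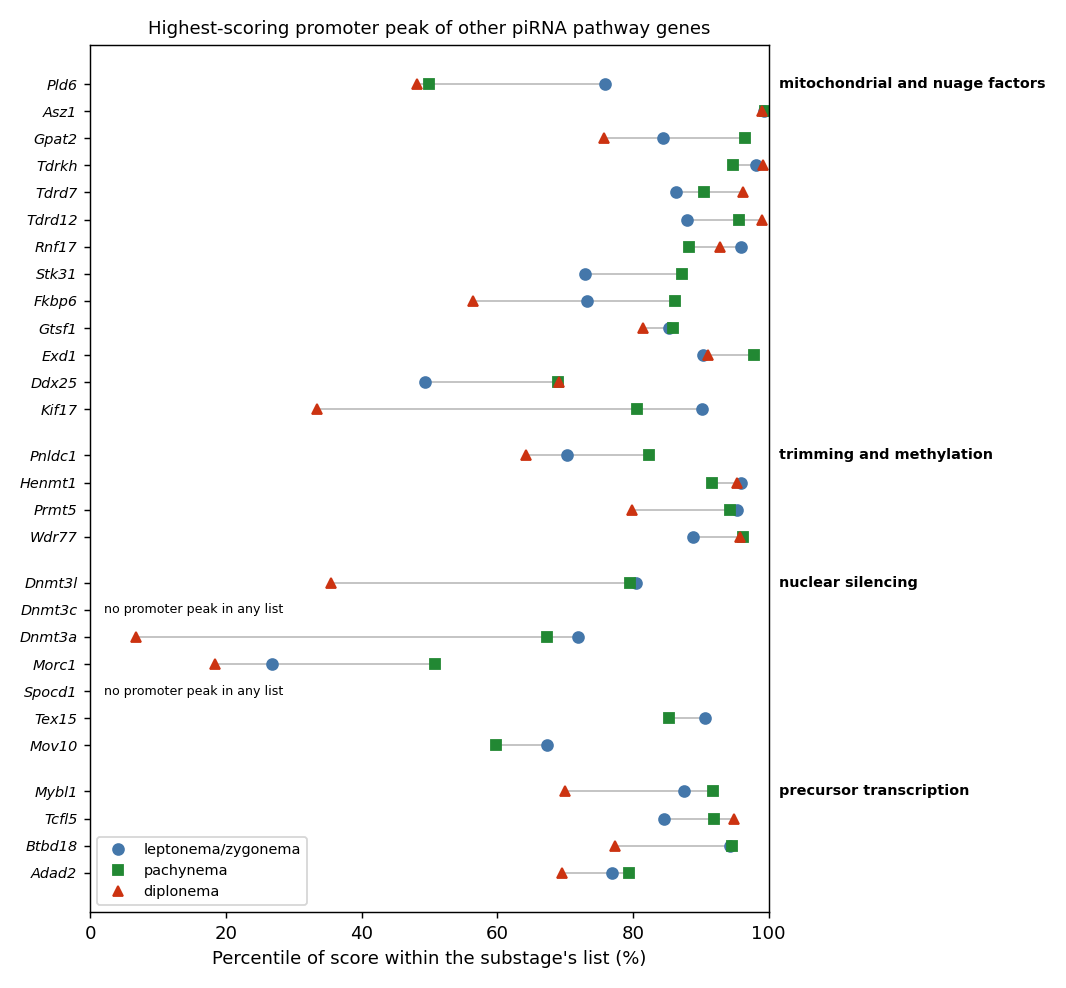
For each of the 28 other pathway genes, grouped by role, the horizontal axis gives the percentile of the highest-scoring promoter peak within the list of leptonema/zygonema (circles), pachynema (squares) and diplonema (triangles). Triangles of the nuclear silencing group lie at 35.4 or lower where called, and Dnmt3c and Spocd1 have no peak in any list.

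The labelled cell type was checked with marker genes. All 6 spermatocyte markers (Sycp1, Sycp3, Dmc1, Spo11, Hormad1 and Mybl1) had a promoter peak in every list, with median percentiles of 87.0, 93.1 and 89.9. In diplonema Sycp1 (99.1), Sycp3 (98.8) and Hormad1 (99.85) were higher than in both earlier lists. Dmc1 (46.7), Spo11 (81.0) and Mybl1 (70.0) were lower than in both. Markers of other germ cells were called too. Of 8 spermatogonia markers, 6, 6 and 4 were called, with medians of 78.6, 78.6 and 41.5, and Gfra1 and Nanos3 in none. In diplonema Kit stood at percentile 16.8 and Dmrt1 at 14.1, while Id4 was higher in each later list (81.7, 91.9 and 99.7). Of 7 spermatid markers, 6 were called in each list, with medians of 74.0, 78.5 and 79.6. The highest of them were Acrv1 in pachynema (percentile 98.1) and Spaca1 in leptonema/zygonema (97.7) and diplonema (96.5), and Tnp2 was called in none. Prm1 and Prm2 shared the same peaks and stand as 2 of the 6 in this count and median. From leptonema/zygonema to diplonema Tnp1 and the Prm1 and Prm2 peak were higher in percentile (79.2 and 90.6, 58.6 and 71.7), and Acrv1 (97.6 and 87.6), Spaca1 (97.7 and 96.5) and Tssk6 (68.9 and 23.8) were lower. Among the somatic markers, those of Sertoli cells had the largest share called in each list. Of all protein-coding genes, 60.2%, 60.5% and 51.6% were called in the 3 lists. Of 6 Sertoli cell markers, 3, 5 and 4 were called, with Gata4 the highest in leptonema/zygonema and pachynema (76.1 and 79.9), Clu in diplonema (61.9), and Amh in none. Of 5 Leydig cell markers, 1 was called, in pachynema alone (Cyp11a1, percentile 27.9), of 3 myoid markers 1 (Des) and of 3 endothelial markers 1 (Kdr), each in leptonema/zygonema and pachynema, and of 3 macrophage markers none. Initiation at a marker does not measure how many cells of that type were present, and lists without counts give no summed level. From pachynema to diplonema, Zbtb16 (74.4 and 66.2), Kit (82.9 and 16.8) and Dmrt1 (86.5 and 14.1) were lower, Stra8 and Sohlh1 lost their call, and Id4 was higher, in a step in which 27.2% of the protein-coding genes called in both lists were higher. The part of other germ cells in the percentiles of the 10 genes was not tested.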

How the data were processed

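The authors collapsed duplicate reads by their molecular identifier, cut adapters (cutadapt), aligned with BWA to mm10 and ran dREG at default settings on the merged libraries of each substage. For every peak the authors deposited a score without a fixed range and a p-value under 0.05, and the sources used here do not say whether it is adjusted. A further deposited column of positions was not used. Reads, signal tracks and other assays were not analysed here, and 0 per-sample columns were present. Per-library depth is not in the lists.

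TSSs were those of all transcripts of GENCODE M21 on GRCm38. A gene-body peak touched the gene record at 1000 bp or more from its TSSs. Percentiles were computed within each list, without tests. Motifs were scanned on both strands around the TSS nearest to the centre of the highest-scoring pachynema peak (first TSS where none). The window search, the choice of the highest-scoring peak and the motif scan gave 0 errors on simulated data. The percentile step gave 0 errors when recomputed on the pachynema scores. All 10 genes were named, and of the others those with partial calls, no call or the 3 highest pachynema percentiles, neighbouring genes and the 3 closest matches to Piwil1; marker genes named one by one were chosen after their values were seen. The 10 genes and the lists were chosen with earlier results of these data known. Promoter alternatives were a limit of 500 bp, peaks covering the TSS, distances from the peak centre, TSSs of protein-coding transcripts, of the GENCODE basic set or of RefSeq, a score of at least 0.5, a p-value of at most 0.01, and lists of equal size. Counts of genes by direction were added after seeing the data. The tools were pandas 2.3.3 and numpy 2.4.6 in Python 3.11.15, with scipy 1.17.1, and figures were drawn with matplotlib 3.10.9.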

Additional observations from a re-analysis of the deposited data

How the results depend on the processing

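The number of the 10 genes with a promoter peak was the same in every list under the 9 alternative rules, of which all but RefSeq TSSs could only remove calls. Counting only peaks that cover a TSS left 9 promoter peaks in leptonema/zygonema and in pachynema and 11 in diplonema, and a score of at least 0.5 left 14, 18 and 13. With lists of equal size there were 14, 16 and 20. Diplonema thus had fewer promoter peaks than pachynema as deposited and more under 2 of these settings. The median percentiles were 88.3, 89.4 and 92.9 among peaks near any TSS, 70.3, 70.8 and 83.9 among protein-coding promoters, 85.8, 88.3 and 92.2 with peaks up to 20 bp apart joined, and 82.0 (leptonema/zygonema) and 86.1 (pachynema) with lists of equal size. These shifts follow from the reference set or the peaks kept. A score of at least 0.5 left 7, 5 and 0 gene-body peaks, and lists of equal size left 6 in leptonema/zygonema and 5 in pachynema. With windows at the 5′ end of the gene record, 3 of 10 genes held the MYB core, against 35% of all promoters. From pachynema to diplonema 6 or 7 of 9 genes had a higher percentile under the 5 alternative percentiles, from leptonema/zygonema to diplonema 5 or 6 of 8 did, and the gene that differed was Piwil2. Over the gene counts, peak counts, medians and direction counts, 114 of 135 alternative values were within 1.5 times the main count or within the 95% Wilson interval of the main percentile, and 21 were not. Of the percentiles of single genes, 34 of 130 alternative values lay within that interval and 96 did not, so these depend on the reference set and the peak read. That interval takes the members of the reference set as independent draws, so it is a yardstick of closeness and not a spread. Equal size leaves the diplonema list unaltered, so its values there were fixed to be the same. No paired analysis was possible because the libraries were merged before calling and the columns carry no replicate number, so no replicate could be left out either. The part of read depth in the lengths of the lists was not tested, since they give no counts.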
